A study of Mus musculus with 2 samples.

Results

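The 43 genes described here encode the folding machinery of the cytosol and of mitochondria: the CCT chaperonin, prefoldin, the HSP70 and HSP110 proteins, their J-domain partners, the HSP90 proteins and their co-chaperones, the mitochondrial chaperonin, 1 small heat-shock protein, a prolyl isomerase and the heat-shock factors. They were chosen by name as members of these families and stand among 43346 annotated genes. All 43 had a row in the data: 42 were found by gene identifier and Hspa14 by the identifiers of its transcripts. RNA sequencing was done on CH12.LX, an established immortalised B-cell lymphoma line from a female mouse of strain B10.H-2aH-4bp/Wts, which the labels pair with the human line GM12878. The 2 libraries are biological replicates 1 and 2 from separate biosamples and form 1 group, with no treatment, genotype or second cell type to set against them. No test between groups was therefore possible, and each value is given per replicate or as mean ± SD (n = 2).

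Chaperones bind unfolded or partly folded proteins and keep them from aggregating, and most use ATP to release them. HSP70 proteins take up short hydrophobic stretches, J-domain proteins bring clients to HSP70 and speed its ATP hydrolysis, and nucleotide exchange factors reset it. HSP90 acts later on kinases and receptors, while the chaperonins CCT and HSP60 enclose whole proteins in a chamber. Heat-shock factor 1 raises transcription of part of this set under stress, and other members are made at all times.

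The libraries held 24469094 and 23586580 expected counts. All 6 B-cell markers were at 1 TPM (relative transcript abundance, corrected for transcript length and library size) or more in both replicates, against 1 of 14 markers of other cell types, Hba-a1 at 4.03 and 3.16 TPM. Summed over the 14, these markers reached 5.6 and 4.32 TPM, and Cd3e, Cd14 and Hbb-bs were among those with 0 counts. These values come from bulk RNA, in which fewer cells with a transcript and less of it per cell cannot be told apart.

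RNA of most of these 43 chosen genes was abundant in this line. The 43 genes took 2.42% and 2.52% of all TPM (2.47% ± 0.0701) and 2.80% and 3.05% of gene counts. Much of this came from 2 genes. Of the summed 24224 and 25215 TPM, Ppia gave 7229 and 7546 TPM and Hspa8 gave 5968 and 5469 TPM. At 1 TPM or more in both replicates stood 40 of the 43 genes, against 25.4% of all genes and 45.9% of protein-coding genes. The 3 that did not reach this level were Bag3, Hspa1a and Hspa1b. At 100 TPM or more in both replicates stood 28 of 43, against 3.25% of all genes. The median member was at 158 TPM, against 17.8 TPM for the 10998 genes at 1 TPM or more and 19.2 TPM for the 9862 protein-coding ones. Above the median of those 10998 genes stood 37 members, and 25 fell in their top 10%. Ordered by mean level, 22 of the 42 neighbouring pairs overlapped in their replicate values and 20 did not. Values were compared across replicates, so a rise shared by both genes of a pair can count as overlap. The SD was under 10% of the mean in 29 members, with a median of 8.09%.

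**Figure D1:**
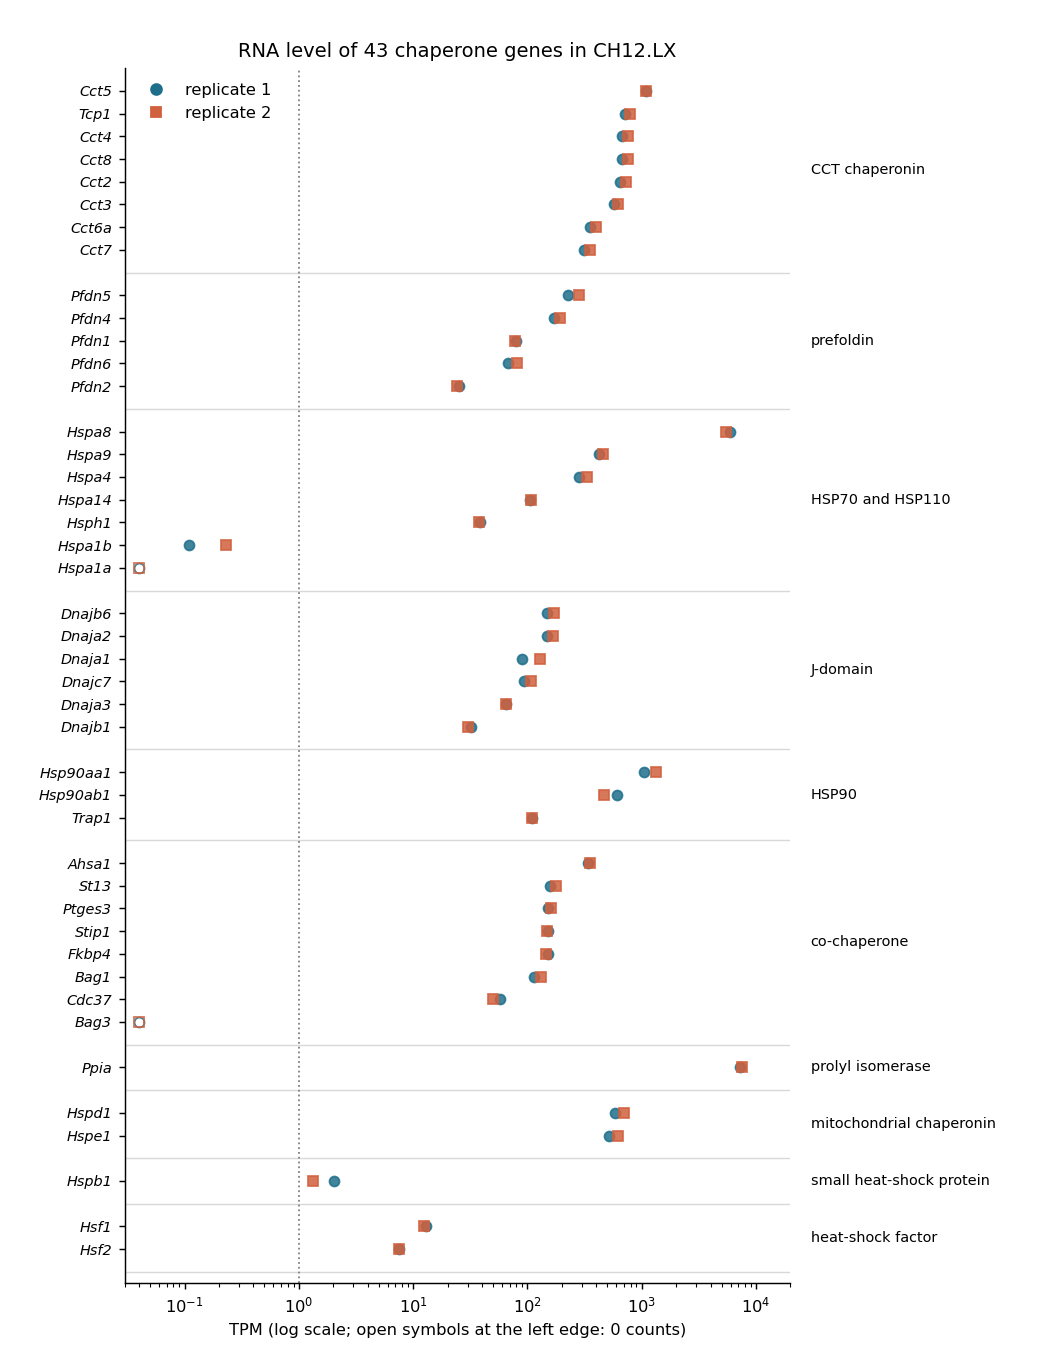
RNA level of each of the 43 chaperone genes in TPM (log axis), by role; circles are replicate 1 and squares replicate 2, open symbols at the left edge had 0 counts, and the dotted line marks 1 TPM. Ppia and Hspa8 stand above all others, the CCT subunits between 313 and 1099 TPM, and Bag3, Hspa1a and Hspa1b left of the line.

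The CCT chaperonin, also called TRiC, folds actin and tubulin in a double ring in which each of its 8 subunits occurs in equal number. All 8 subunit genes were among the well expressed members, with a summed level of 5020 and 5508 TPM. Cct5 was highest at 1087 and 1099 TPM. It lay above Tcp1, the alpha subunit, at 712 and 795 TPM, and the values of the 2 genes did not overlap. A middle group of Cct4 (673 and 759 TPM), Cct8 (668 and 753 TPM) and Cct2 (648 and 732 TPM) overlapped with Tcp1 and with each other across replicates. Within each replicate the order was Tcp1, Cct4, Cct8 and Cct2. Cct3 followed at 568 and 623 TPM. The lowest were Cct6a at 352 and 394 TPM and Cct7 at 313 and 353 TPM, and their replicate values overlapped by a narrow margin. Within each replicate Cct6a was above Cct7. The highest subunit exceeded the lowest 3.48-fold and 3.12-fold in the 2 replicates (3.30 ± 0.254), so RNA levels were uneven between subunits that the complex holds at equal number.

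Prefoldin, a jellyfish-shaped hexamer that hands unfolded actin and tubulin to CCT, was lower and more uneven. Pfdn5 had 228 and 283 TPM and Pfdn4 171 and 194 TPM. Pfdn1 stood at 79.5 and 78.4 TPM and Pfdn6 at 68.2 and 80.8 TPM. Pfdn2 was lowest at 25.1 and 24.4 TPM, with no overlap with the other subunits. The remaining subunit, Vbp1, is not among the 43 genes and had 187 and 224 TPM. Over these 6 subunits the highest exceeded the lowest 9.08-fold and 11.6-fold (10.3 ± 1.78). For scale, the 14 subunits of the 20S proteasome, another complex of fixed composition, spanned 3.67-fold and 2.83-fold (3.25 ± 0.598), from Psmb3 down to Psma5. The coefficient of variation between subunits was 0.363 ± 0.0258 in CCT, 0.657 ± 0.0370 in prefoldin and 0.348 ± 0.0441 in the proteasome core. Pfdn2 lay below the next lowest subunits, Pfdn1 and Pfdn6, in both replicates.

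**Figure D2:**
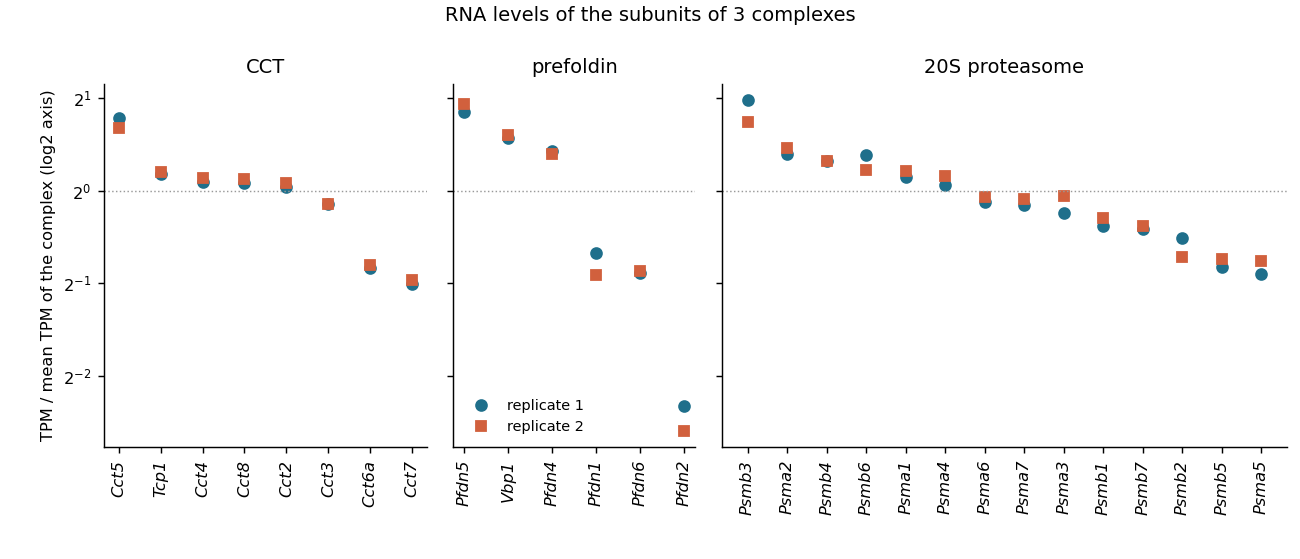
TPM of each subunit divided by the mean of its complex (log2 axis) for CCT, prefoldin with Vbp1, and the 20S proteasome; circles are replicate 1, squares replicate 2, and the dotted line is the complex mean. Cct5 stands highest and Cct7 lowest in CCT, and Pfdn2 lies far below the other prefoldin subunits in both replicates.

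Among the HSP70 proteins the constitutive cytosolic form dominated. Hspa8, the cognate HSP70 that also strips clathrin coats, had 5968 and 5469 TPM, second only to Ppia among the members. Hspa9, the mitochondrial HSP70 that pulls in imported proteins, had 419 and 460 TPM, and Hspa8 exceeded it 13.1 ± 1.68-fold. Hspa14, an HSP70 bound to ribosomes, stood at 106 and 108 TPM. Its row also holds transcripts that the current annotation assigns to Gm45902, but 95.5% ± 0.233 of the row's TPM lay on transcripts of Hspa14. The 2 members of the HSP110 branch, which act as nucleotide exchange factors for HSP70, differed: Hspa4 had 280 and 335 TPM, and Hsph1 had 38.3 and 37.7 TPM. Hspa8 exceeded Hspa4 18.8 ± 3.53-fold and Hsph1 150.5 ± 7.81-fold. With the most counted transcript of each gene alone, Hspa8 exceeded Hsph1 89.7 ± 15.5-fold and Hspa9 7.96 ± 0.772-fold.

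The stress-induced HSP70 genes were close to silent. Hspa1b had 6 and 12 counts, or 0.11 and 0.23 TPM. Hspa1a had 0 counts in both replicates, and the limit that goes with no counts, the level of 3 counts, was 0.0523 and 0.0545 TPM. The most counted transcripts of these neighbouring copies on chromosome 17 were 99.1% identical over 2200 aligned bases, so the split of reads between them is uncertain. In contrast, Hspa1a and Hspa8 shared 75.1% over 1828 bases.

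All 6 J-domain genes were expressed, within a narrower range than the HSP70 genes. Dnajb6, which holds back aggregation of polyglutamine proteins, had 149 and 172 TPM. Dnaja2, a co-chaperone of HSP70 in the cytosol, had 147 and 169 TPM. These 2 genes overlapped and were the highest. Dnaja1, a close relative of Dnaja2, had 89.6 and 129 TPM, the largest relative gap between replicates among members above 2 TPM. Dnajc7, which has repeats that bind both HSP70 and HSP90, had 94.2 and 108 TPM. Dnaja3, the mitochondrial member, had 65.5 and 64.8 TPM. Dnajb1, the heat-induced partner of HSP70, was lowest at 31.9 and 30.5 TPM, without overlap with the other 5. Per replicate, Dnaja1 stood at 0.610 and 0.765 of Dnaja2 and at 2.81 and 4.24 times Dnajb1.

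The cytosolic HSP90 pair was led by the form usually described as inducible. Hsp90aa1 had 1046 and 1326 TPM, and the constitutive Hsp90ab1 had 608 and 464 TPM. The groups of values did not overlap, and the ratio of Hsp90ab1 to Hsp90aa1 was 0.582 and 0.350 (0.466 ± 0.164). With the most counted transcript of each gene alone, the ratio was 0.694 and 0.493, so the order held in both replicates while its size moved. Trap1, the mitochondrial HSP90, had 110.2 and 110.3 TPM, the smallest relative gap between replicates of any member with counts.

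Of the 8 co-chaperones of HSP90 and HSP70, 5 lay between 114 and 177 TPM. Ahsa1, which activates the HSP90 ATPase, stood apart at 341 and 355 TPM. St13, which stabilises the ADP-bound state of HSP70, had 158 and 177 TPM. Ptges3, the p23 protein that holds HSP90 in its closed state, had 151 and 160 TPM. Stip1, the adaptor that links HSP70 to HSP90, had 151 and 148 TPM, and Fkbp4, a prolyl isomerase of steroid receptor complexes, had 152 and 145 TPM. The last pair could not be ordered, since their replicate values overlapped. Bag1, a nucleotide exchange factor of HSP70, had 114 and 131 TPM. Cdc37, which delivers kinases to HSP90, was lower at 57.97 and 49.52 TPM. Bag3, a stress-induced relative of Bag1 that acts in selective autophagy, had 0 counts in both replicates, for a limit of 0.0606 and 0.0632 TPM.

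Ppia, which encodes cyclophilin A, the abundant cytosolic prolyl isomerase that binds cyclosporin, was the highest member at 7229 and 7546 TPM. In mitochondria, Hspd1 and Hspe1 encode the HSP60 chamber and its HSP10 lid. Hspd1 had 587 and 705 TPM, and Hspe1 had 517 and 625 TPM. Both were higher in replicate 2, and their ratio stayed at 0.881 and 0.886 (0.884 ± 0.00317). Hspd1 exceeded Trap1 5.86 ± 0.754-fold.

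Hspb1, the small heat-shock protein of the set, had 28.93 and 18 counts, or 2.04 and 1.32 TPM. The heat-shock factors themselves were modest. Hsf1, the main stress-responsive factor, had 12.9 and 12.5 TPM, and Hsf2, a relative that forms mixed trimers with it, had 7.45 and 7.51 TPM. Their values did not overlap, with a ratio of 1.70 ± 0.0531.

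A list of 7 members known to be induced by heat (Hspa1a, Hspa1b, Hspb1, Dnajb1, Hsph1, Bag3 and Hsp90aa1) summed to 1118 and 1396 TPM. Without Hsp90aa1 the other 6 summed to 72.3 and 69.8 TPM (71.0 ± 1.79). The list is not complete, since Hspd1, Hspe1 and Dnaja1 are known to respond to heat as well. Partners of the 7 that are made in cells without heat (Hspa8, Hsp90ab1, Dnaja1 and Dnaja2) summed to 6813 and 6231 TPM. Hspa8 alone gave 5968 and 5469 TPM of that, so each sum rests mostly on 1 gene. Hsp90aa1 carried nearly all of the sum of those 7, and Hspa1a, Hspa1b and Bag3 contributed less than 1 TPM together.

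Promoter sequence was examined because heat-shock factors bind repeats of a short unit in alternating orientation. A pair of such units was searched as GAANNTTC or TTCNNGAA, which covers both strands, in the RefSeq windows (build GRCm38.p6) of 250 bases before to 50 after each transcription start. An entry was found for 35 members; those without one were Cct4, Pfdn1, Hspa8, Hspa9, Hsp90aa1, Hsp90ab1, St13 and Hsf1. At least 1 pair occurred in 14 of the 35 (40%), against 17.0% of 27025 genes with an entry. With GAANNTTC alone the counts were 11 of 35 and 9.04%. Both member counts include Hspd1 and Hspe1, which share matches, and Hspa1a and Hspa1b, whose windows are 98.7% identical. They thus hold fewer separate matches than genes. A run of 3 alternating units, which overlaps the pairs, occurred in Hsph1, Dnajb6, Hspd1 and Hspe1, 4 of 35, against 0.662% of all genes. Hspd1 and Hspe1 lie head to head and share 1 run, so those 4 genes hold 3 separate runs. The letters CCAAT or ATTGG were in 17 of the 35 (48.6%) and in 41.1% of all genes, and TATAAA on the gene strand was in Stip1 and Ppia, 5.71%, against 9.77%.

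The elements of the genes with a run of 3 units, and of the heat-induced genes, are shown as 30-base windows where there is a match, read 5′ to 3′ on the strand of the gene, with the matching units in capitals. Of the listed heat-induced genes, Dnajb1 has an entry but no match, and Hsp90aa1 has no entry. The windows let the shared run of the HSP60 and HSP10 genes be read from both sides.
Hspe1 (chr1:55088053-55088082, plus strand): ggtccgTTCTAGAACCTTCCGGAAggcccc
Hspd1 (chr1:55088053-55088082, minus strand): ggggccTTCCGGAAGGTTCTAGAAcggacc
Dnajb6 (chr5:29735843-29735872, plus strand): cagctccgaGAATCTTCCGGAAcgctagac
Hsph1 (chr5:149636280-149636309, minus strand): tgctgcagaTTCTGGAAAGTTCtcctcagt
Hsph1, separate pair (chr5:149636351-149636380, minus strand): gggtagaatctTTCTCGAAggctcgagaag
Hspb1 (chr5:135887801-135887830, plus strand): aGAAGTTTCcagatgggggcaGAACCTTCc
Hspa1b (chr17:34959324-34959353, minus strand): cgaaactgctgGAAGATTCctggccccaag
Hspa1a (chr17:34972242-34972271, minus strand): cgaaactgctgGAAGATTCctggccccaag
Bag3 (chr7:128523603-128523632, plus strand): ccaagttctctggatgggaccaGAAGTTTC

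The shared run spanned positions -89 to -72 from the start of Hspe1 and positions -144 to -127 from a start of Hspd1 at 55087932. The window of another Hspd1 start, at 55088243, held no match. The run thus lies within the annotated Hspd1 gene, chr1:55077835-55088243. The 2 genes, transcribed away from each other, overlap by 112 bases at chr1:55088132-55088243 in the annotation. Elements were present across the range of RNA levels: they occurred in Cct5 at 1093 ± 9.04 TPM, in Cct2 at 690.04 ± 59.9 TPM and in Cct6a at 373 ± 30.2 TPM, and also in Hspa1a and Bag3 with 0 counts. The others were Fkbp4, Dnaja1 and Cdc37. These matches describe letters in a window, and no binding was measured.

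The upstream 250 bases of the stress-induced pair show how alike the copies are outside their transcripts. They are printed with the element in capitals, for Hspa1a at chr17:34972157-34972406 and for Hspa1b at chr17:34959239-34959488, both on the minus strand, and 247 of the 250 bases were the same (98.8%).
Hspa1a: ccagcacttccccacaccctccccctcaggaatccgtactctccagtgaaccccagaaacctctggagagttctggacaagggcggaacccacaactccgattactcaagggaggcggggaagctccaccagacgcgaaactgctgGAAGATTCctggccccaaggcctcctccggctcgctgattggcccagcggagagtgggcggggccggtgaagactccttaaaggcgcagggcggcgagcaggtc
Hspa1b: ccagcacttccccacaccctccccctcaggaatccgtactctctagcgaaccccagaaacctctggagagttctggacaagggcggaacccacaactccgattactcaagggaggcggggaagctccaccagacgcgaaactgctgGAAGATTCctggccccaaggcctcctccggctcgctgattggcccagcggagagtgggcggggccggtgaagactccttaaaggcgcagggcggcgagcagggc

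**Figure D3:**
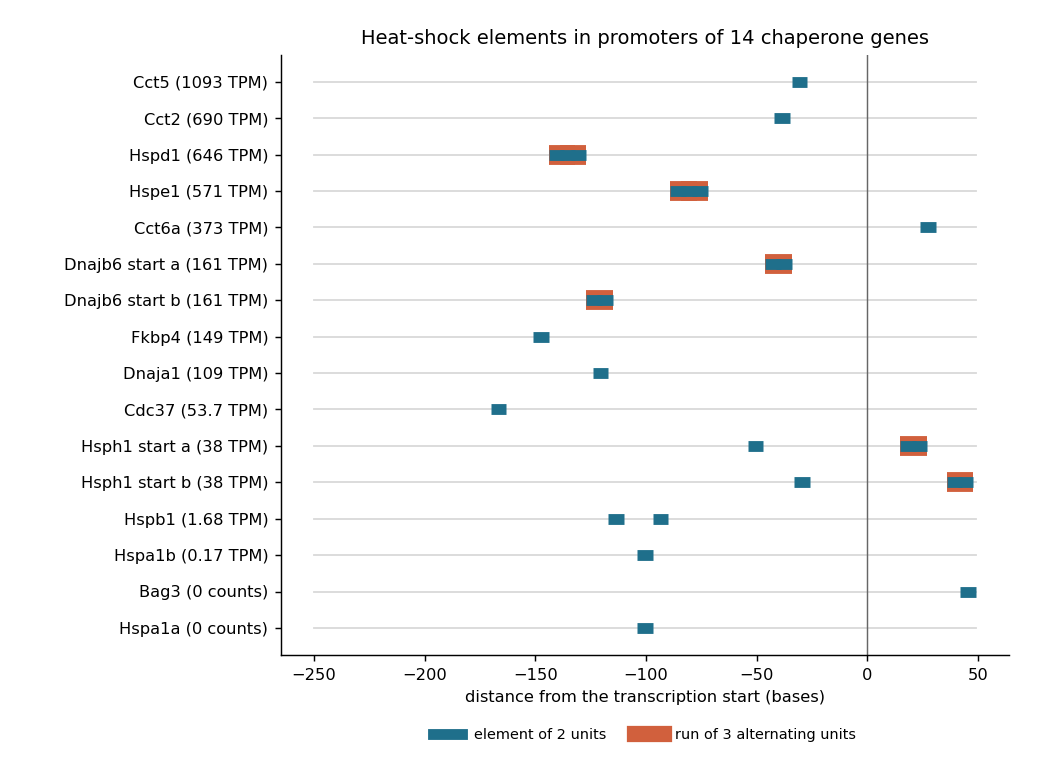
Position of heat-shock elements, in bases from the transcription start, in the RefSeq promoter windows of 14 chaperone genes ordered by mean TPM. Thin bars are pairs of units and thick bars runs of 3 alternating units. Each start with an element has its own line, and starts without one are not drawn. Elements appear both in genes near 1093 TPM and in genes with 0 counts.

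Transcript tables divided each gene's TPM between its annotated transcripts. Of the 39 members with at least 100 counts on average, 11 had a single transcript. In 26 of the 39 the leading transcript held 80% or more of the gene in both replicates. Shares over all genes were not worked out for the numbers of genes in this paragraph. Dnajb6-203 held 90.7% and 90.7%, Hsph1-201 held 97.6% and 97.3%, and Hsf1-201 and Hsf2-201 held 100%. The leading transcript stayed under 80% in both replicates for Dnaja3, Pfdn5, Cct4, Dnaja1, Hsp90aa1, Ppia, Pfdn2, Hspa4, Hspa8, Dnajc7 and Tcp1. In 36 of 39 genes it was annotated as protein-coding. The exceptions were Ppia, Dnajc7 and Cct6a. Ppia-201, annotated for nonsense-mediated decay, held 70.5% and 66.0%, and the single transcript of Cct6a is annotated as processed. The processed transcript Dnajc7-203 held 53.2% and 52.9% of the TPM of Dnajc7. By counts it held 26.1% and 27.4%, and the coding transcript Dnajc7-201 led with 66.1% and 61.4%.

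Transcript shares of TPM moved by over 10 percentage points between replicates in 5 of the 39 genes: Bag1, Cct8, Dnaja1, Hsp90aa1 and Hspa8. The same count over all genes was not made. Whether such moves are usual for this pair of libraries is therefore not known. In Bag1 the assignment changed almost completely. Bag1-201 held 0% and 93.5%, Bag1-202 held 63.3% and 5.33%, and Bag1-203 held 36.7% and 1.19%, although the gene itself was at 114 and 131 TPM. In Hspa8, the coding transcript Hspa8-201 held 49.3% and 67.6%, or 2942 and 3696 TPM, and the short processed transcript Hspa8-209 held 35.2% and 22.4%. By counts, Hspa8-201 held 82.1% and 90.4%, since TPM divides counts by transcript length and counts do not. Hspa8 as a whole had more counts in replicate 2 (178113) than in replicate 1 (162556) but a lower TPM there. The effective length the authors deposited for the gene, an average over its transcripts, was 1624 nt in replicate 2 and 1303 nt in replicate 1.

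The other 3 genes were Hsp90aa1, Cct8 and Dnaja1. Hsp90aa1-202, the coding transcript, held 74.2% and 64.3% of TPM, and the retained-intron transcript Hsp90aa1-205 held 5.80% and 21.7%. By counts, Hsp90aa1-202 held 94.5% and 92.4% and the short Hsp90aa1-205 held 0.638% and 2.70%. Cct8-209, annotated for nonsense-mediated decay, held 7.91% and 23.2% of TPM, and 5.42% and 17.1% of counts. Dnaja1-205, a shorter coding transcript, held 10.6% and 31.0%, or 9.45 and 40.01 TPM, while Dnaja1-201 was at 71.0 and 78.8 TPM. By counts, Dnaja1-205 held 2.69% and 9.52%.

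**Figure D4:**
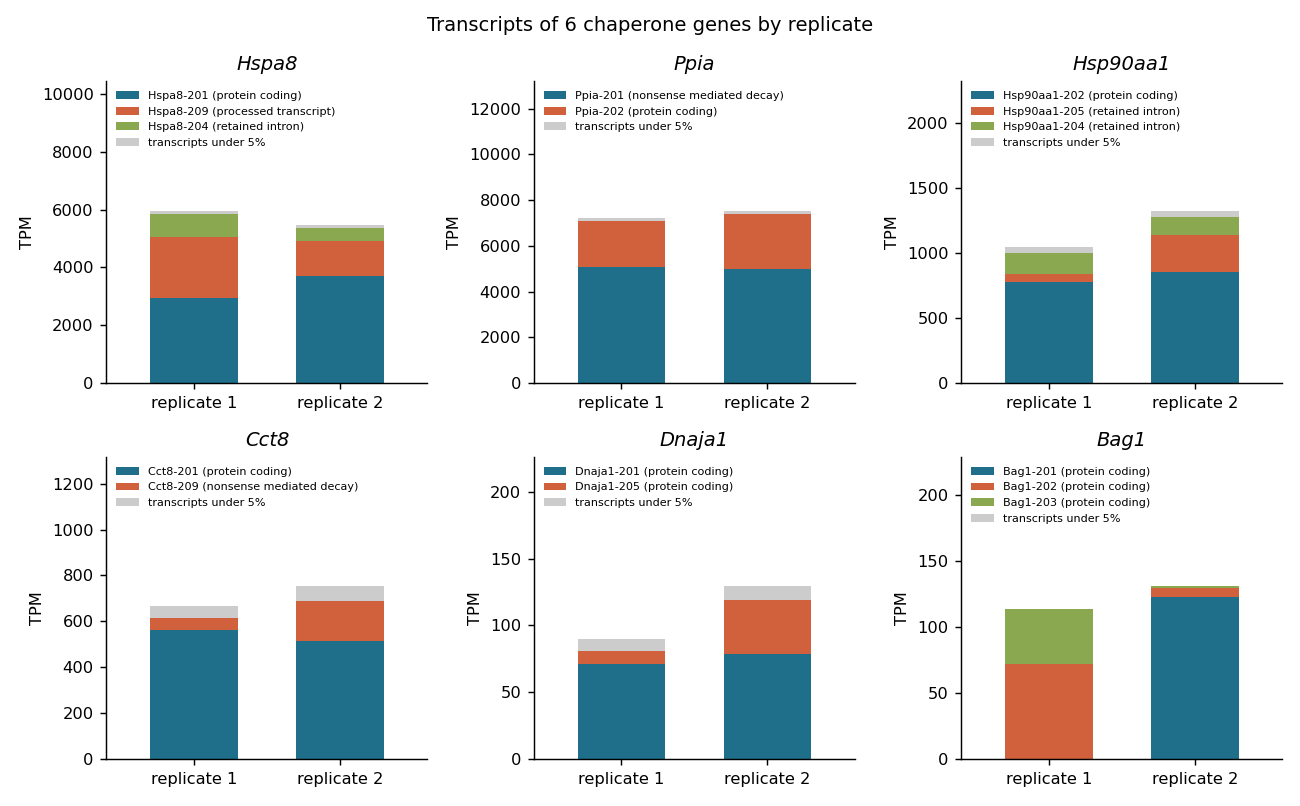
TPM of the annotated transcripts of 6 chaperone genes, stacked within each replicate; colours are transcripts with at least 5% of the gene in a replicate and grey is the rest. The Bag1 bars are of similar height but differ in transcript, and the Hspa8 bars differ mainly in Hspa8-209 and Hspa8-201.

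Between replicates, none of the 40 members with a mean of at least 20 counts differed over 1.5-fold on TPM + 0.5. Of all 11661 such genes, 2.69% did. At a mean of at least 100 counts it was 0 of 39 members, against 1.29% of 9763 genes. The pseudocount of 0.5 holds Hspb1 under 1.5-fold. Its replicate 2 TPM was 0.647 of its replicate 1 TPM, and with a pseudocount of 0.1 it passed. A gap of over 25% was present in 4 of 40, against 13.4% of all genes. These differences, on log2(TPM + 0.5) as replicate 2 minus replicate 1, were 0.53 for Dnaja1, 0.34 for Hsp90aa1, -0.39 for Hsp90ab1 and -0.48 for Hspb1. On counts scaled to library size they were 0.25 for Dnaja1, 0.16 for Hsp90aa1, -0.38 for Hsp90ab1 and -0.41 for Hspb1, each with the same sign as in TPM. Of the 40, 28 were higher and 12 lower in replicate 2, against 5752 higher and 5856 lower of the 11661 genes. The median was 0.14 over the 40 and -0.0022 over all genes. In the bands of all genes with median levels of 6.99 and 8.49 in log2(mean TPM + 0.5), it was 0.041 and 0.015. Scaling to the spike-in RNAs moved the median of all genes to 0.26 and that of the members to 0.42. With it 38 of the 40 were higher, and the same number over all genes was not worked out. Hspa8 changed sign with the scale, with -0.13 in TPM and 0.18 in scaled counts.

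**Figure D5:**
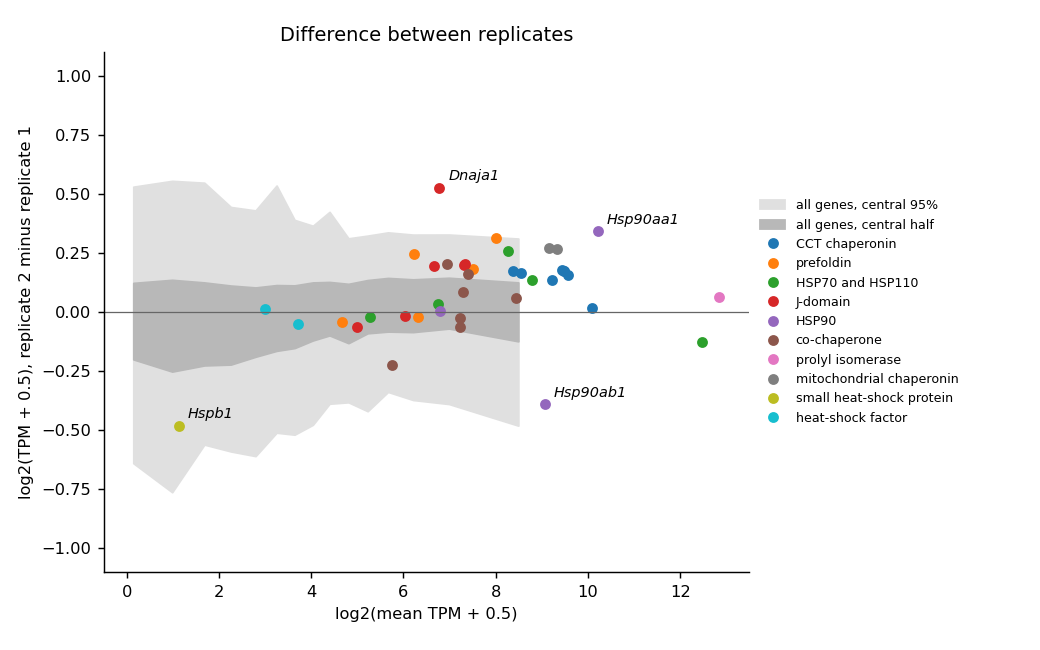
Difference between replicates on log2(TPM + 0.5), replicate 2 minus replicate 1, against log2 of the mean level for the 40 members with a mean of 20 counts or more; colours are roles, and bands hold the central 50% and 95% of all genes by level. Dnaja1 lies highest and Hspb1 lowest, and most members lie above 0.

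Several members have processed copies in the genome that were given reads too. Annotated pseudogenes matching a member's most counted transcript (at least 90% identity over 50% of the pseudogene and 200 bases) numbered 51, for 13 members, and 16 of them reached 1 TPM while 22 had 0 counts. Ppia had 17, of which Gm10123, 98.99% identical, held 2074 and 2906 TPM. Gm15459 and Gm8355, 99.7% and 98.7% identical to Hspa8, held 358 and 397 TPM and 223 and 357 TPM. The 7 Hspa8 copies together held 8.63% and 8.95% of the counts of gene and copies. For Hsp90aa1, Gm12346 held 43.5 and 52.6 TPM, whereas the 2 copies of Hsp90ab1 and the 3 copies of Hspe1 held 0 counts. Hspd1-ps3 held 67.1 and 79.2 TPM, Ptges3-ps held 87.6 and 115 TPM, and Gm15542, a copy of Dnaja1, held 28.9 and 33.7 TPM. Counted the same way, copies held 10.9% and 13.7% for Ppia, 13.4% and 13.1% for Dnaja1, 7.77% and 9.54% for Ptges3, 7.30% and 7.17% for Hspd1, 5.22% and 6.90% for Dnajb6, and 3.90% and 4.15% for Hsp90aa1. Levels of genes with such copies are less certain than those of the 30 members without one, among them 7 of the 8 CCT subunits. An exception among the 30 is the pair Hspa1a and Hspa1b, which are 99.1% identical to each other.

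Other genes of the same pathway had a lower median than the 43, though Vbp1, Ppid, Cacybp, Nudc and Dnajc9 lay above the median member. Of 86 such genes, 62 reached 1 TPM in both replicates, against 25.4% of all genes and 45.9% of protein-coding genes. The median of the 86 was 18.4 TPM, and 12 had 0 counts. Among HSP90 co-chaperones 15 of 16 passed: the cyclophilin Ppid had 337 and 414 TPM, Cacybp had 300 and 351 TPM, Nudc had 156 and 161 TPM, and the muscle myosin chaperone Unc45b only 0.01 and 0.06 TPM. Of J-domain proteins 21 of 27 passed, led by Dnajc9, a histone chaperone, at 150.0 and 178 TPM. The lowest detected was Dnajc6 at 0.01 and 0.02 TPM, while Dnajb3 and Dnajb8 had 0 counts. All 7 nucleotide exchange factors passed, from Bag2 at 56.4 and 62.4 TPM to Bag4 at 15.9 and 13.9 TPM. All 7 mitochondrial folding and protease genes passed, from the import factor Timm44 at 83.8 and 93.02 TPM to Dnlz at 11.6 and 11.5 TPM. Of TRiC and prefoldin partners 7 of 9 passed, from Vbp1 down, and Cct6b, the testis form of the zeta subunit, had 0.34 and 0.44 TPM.

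The remaining groups were mostly near 0. Small heat-shock proteins passed in 1 of 9 genes, Hspb11 at 29.7 and 31.1 TPM, which is now known as a subunit of the intraflagellar transport machinery; Cryaa, the lens alpha-A crystallin, had 0 and 1 count. HSP70 relatives passed in 3 of 6, with Hspa13 at 30.9 and 35.8 TPM and Hspa12a at 0.08 and 0.07 TPM. Heat-shock factor partners passed in 1 of 5, the factor-binding protein gene Hsbp1 at 27.8 and 25.7 TPM, with Hsf5 at 0.01 and 0.03 TPM.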

How the data were processed

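RNA longer than 200 nt from 2 CH12.LX libraries with ERCC spike-ins was sequenced. The labels call the assay total RNA sequencing but describe poly(A)+ RNA, which was not settled. Expected counts, TPM and isoform percent were deposited by the authors, aligned to mm10 and annotated with GENCODE M4, per the labels and accompanying text files; aligner, counter and strand: not given in the sources used here. Expected counts divide shared reads between features. TPM has the same total in both libraries, spike-ins included, so each value depends on the rest.

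Symbols came from GENCODE M21 by identifier without version. Members, by family, and the lists and alternatives were chosen with earlier results of these data known. All 43 members are named; of other pathway genes, each group's highest and lowest detected and those above the members' median. Of transcripts, leading ones under 80% in both replicates were listed with Dnajb6, Hsf1, Hsf2, Bag1, Hsph1 and Hsp90aa1; the rest, and the copies named, were chosen after their values were seen. The 1 group allowed no test between groups; replicate differences used a pseudocount of 0.5, and called genes lay past 1.5-fold. The difference step was checked on simulated data with counting error only. The spread between these replicates was larger, so that check does not give a rate of false calls for them. The replicates were not 1 library deposited again: the chi-square per degree of freedom between their counts was 13.7 over 11663 genes. Limits of 3 counts cover counting error only, as PCR reads without molecular identifiers can repeat a molecule. Tools were Python 3.11.15, pandas 2.3.3, R 4.3.3, edgeR 4.0.16 and DESeq2 1.42.0 (scaling factors only, on rounded counts) and blastn 2.17.0. No protein sequences were used here, so the planned look at protein C-termini was not made.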

Additional observations from a re-analysis of the deposited data

How the results depend on the processing

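Apart from leaving out a replicate, alternatives gave 57 values for the main results, of which 43 stayed within the replicate SD or 1.5 times the count and 14 moved; none of these 57 reversed. Using the most counted transcript of each gene only, chosen after seeing the data, the span was 3.03-fold for CCT, 12.3-fold for prefoldin and 4.69-fold for the 20S proteasome, and ratios were 7.96 for Hspa8/Hspa9, 89.7 for Hspa8/Hsph1, 36.3 for Hspa8/Hspa14, 0.475 for Dnaja1/Dnaja2 and 2.41 for Dnaja1/Dnajb1. With counts per annotated length, Hspa8/Hsph1 was 138 and Hspe1/Hspd1 0.695; effective lengths shorten short transcripts most. Members past the replicate fold were 3 with spike-in scaling (Pfdn5, Dnaja1, Hsp90aa1), 1 with a pseudocount of 0.1 (Hspb1) and 4 when a gap of 25% sufficed, instead of 0. Requiring 3 alternating units left 4 promoters instead of 14. Leaving out each replicate in turn kept 40 members at 1 TPM or more, and gave medians of 151 to 169 TPM. With 2 replicates each lies within the SD by construction, so other values without a replicate are those of the remaining one and say nothing of stability. For single members and transcript shares, 84 of 121 values stayed within the SD and 37 moved. Bag1/Bag3 could not be formed because Bag3 had 0 counts. No paired analysis was possible because the replicates form 1 group. Depth limits Hspb1, Hspa1b, Hspa1a and Bag3.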
